A study of Mus musculus with 7 samples.

Results

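Described here are 8 genes of neurotrophin signalling and sorting in the mouse striatum, of 27998 genes in the deposited tables, chosen by symbol: the BDNF receptor gene Ntrk2, its relative Ntrk3, the p75 receptor gene Ngfr, the ligand gene Bdnf, and the sorting receptor genes Sort1, Sorcs1, Sorcs2 and Sorcs3. RNA of single nuclei was read in 4 HttQ175/+ mice and 3 WT mice, all male and of strain C57BL6/J, with 1 library per mouse. In the HttQ175/+ mice, a model of Huntington's disease, 1 copy of huntingtin carried a lengthened CAG repeat, knocked into the gene and so present in all cells of the body; WT mice carried no such copy. HttQ175/+ replicate 1 was 15 months old and the other 6 mice were 14 months old. Each mouse counts as 1 replicate, and the numbers serve as names. The deposited annotation places 4524 nuclei in 12 types, and the question here was where these genes are read and whether their levels differ by genotype within a type. Levels are given as CPM, a gene's unique molecular identifiers (UMIs, each 1 captured RNA molecule) per 1000000 UMIs of a nucleus, averaged over the nuclei of a type in a mouse.

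Ntrk2 encodes TrkB and Ntrk3 encodes TrkC, receptor tyrosine kinases that bind BDNF and neurotrophin-3 and signal through Ras and ERK, PI3K and Akt, and phospholipase C gamma. Striatal neurons make little BDNF of their own; most of it arrives in the axons of cortical neurons, and spiny projection neurons (SPNs) depend on it. The Vps10p domain receptors sortilin (Sort1) and SorCS1 to SorCS3 carry cargo between Golgi, endosomes and the cell surface. Sortilin binds the BDNF precursor, and sortilin and SorCS2 pair with p75 (Ngfr) as receptors of precursor neurotrophins.

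Upstream sequence is shown for Ntrk2, the gene with the lower level in both main SPN types described below, beside that of Sorcs1, a sorting gene that passed no test. The RefSeq table, on build GRCm38.p6 (mm10), held promoters of 5 of the 8 genes. Each line gives the 250 bases before the start of the gene, 5′ to 3′ on the gene's strand, with CG dinucleotides in capitals; Ntrk2 lies on the plus strand at chr13:58806319-58806568 and Sorcs1 on the minus strand at chr19:50678647-50678896.
Ntrk2: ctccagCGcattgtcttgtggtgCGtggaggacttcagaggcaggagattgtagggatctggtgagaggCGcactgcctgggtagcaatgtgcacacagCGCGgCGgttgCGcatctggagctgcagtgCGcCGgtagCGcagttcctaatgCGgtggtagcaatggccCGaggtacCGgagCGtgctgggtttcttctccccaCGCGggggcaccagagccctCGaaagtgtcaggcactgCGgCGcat
Sorcs1: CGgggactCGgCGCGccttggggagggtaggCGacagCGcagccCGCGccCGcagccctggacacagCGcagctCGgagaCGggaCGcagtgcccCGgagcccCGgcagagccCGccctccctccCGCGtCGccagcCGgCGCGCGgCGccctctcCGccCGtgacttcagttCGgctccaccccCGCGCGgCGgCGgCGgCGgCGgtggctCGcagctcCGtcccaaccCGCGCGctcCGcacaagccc
The Ntrk2 window held 19 CG dinucleotides and 62.8% G or C, and the Sorcs1 window 41 and 79.6%, against medians of 6 and 52.4% over 32851 promoter windows of the same length. Both strands were searched for letters of known motifs. The GC box GGGCGG occurred at 2 places in the Sorcs1 window and at none in the Ntrk2 window, and 32.7% of all windows held it. Neither window held the cAMP response element TGACGTCA (in 1.55% of windows), the shorter TGACG contained in it (17.8%), the E-box CACGTG (6.02%) or TATAAA (12.4%). A match describes letters and not a binding site, and its absence says only that the letters are not in the window.

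The libraries held 448 to 1239 nuclei and 1096116 to 2256178 UMIs in HttQ175/+ mice, and 338 to 558 nuclei and 872558 to 1436425 UMIs in WT mice. Median UMIs per nucleus lay lower in all 4 HttQ175/+ mice (1657 to 2385) than in all 3 WT mice (2498 to 2599). Across libraries 3 barcodes were shared, by 6 nuclei. Labels of the annotation were checked against marker genes: each type's own markers were highest in it, except that dSPN markers of WT mice were highest in eccentric SPNs and Pnoc was read with 1 UMI in the type called Pnoc/Pvalb interneurons, which held Pvalb, Pthlh and Kit. Summed SPN markers (5 of 5 genes detected) were also read in astrocytes, at 775 to 2067 CPM in HttQ175/+ mice and 575 to 1682 CPM in WT mice. Nuclei labelled microglia held more SPN markers than microglia markers in both genotypes. In HttQ175/+ mice the averages were 3186 CPM for SPN markers and 1672 CPM for microglia markers. In WT mice these averages were 6604 CPM and 1979.8 CPM. No test of genotype was made in microglia. However, microglia are shown in the plot of pooled levels and entered the likeness of pattern described below, whose r values and rankings depend on them in part. The part of RNA from other cells in the levels below was not tested. Huntingtin tags at the 3' end of its transcript do not check which mice carry the allele; Htt itself was tested in 5 types and was not called in any.

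Across the 12 types Ntrk2 (chr13:58806569-59133970, plus strand) was highest in astrocytes among types with at least 5 nuclei in every mouse. Astrocytes averaged 461 ± 162 CPM in HttQ175/+ mice and 438 ± 151 CPM in WT mice (SD, n = 4 and 3, as in all means below). With 6.06% of all UMIs, astrocytes held 15.6% of the 1693 Ntrk2 UMIs. In WT mice the next types were eccentric SPNs at 311 ± 227 CPM, oligodendrocyte progenitors at 284 ± 246 CPM, Sst interneurons at 215 ± 28.2 CPM, iSPNs at 213 ± 71.4 CPM, dSPNs at 197 ± 18.1 CPM and Pnoc/Pvalb interneurons at 194 ± 27.8 CPM. None of these neighbours differed beyond its spread. Endothelial nuclei (98.1 ± 170.0 CPM) and oligodendrocytes (65.1 ± 27.1 CPM) came last. In HttQ175/+ mice the order after astrocytes ran through Pnoc/Pvalb interneurons (400.1 ± 108.7 CPM, within the spread of astrocytes), Sst interneurons (204 ± 90.1 CPM), endothelial nuclei (133 ± 107 CPM), oligodendrocyte progenitors (121 ± 101 CPM), dSPNs (116 ± 23.3 CPM) and eccentric SPNs (110.4 ± 51.2 CPM), with oligodendrocytes (81.5 ± 45.4 CPM) and iSPNs (73.5 ± 18.8 CPM) last. Cholinergic interneurons, SPNs of unknown subtype and microglia had 1 to 7 nuclei in each WT mouse, and no order is read from them.

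**Figure D1:**
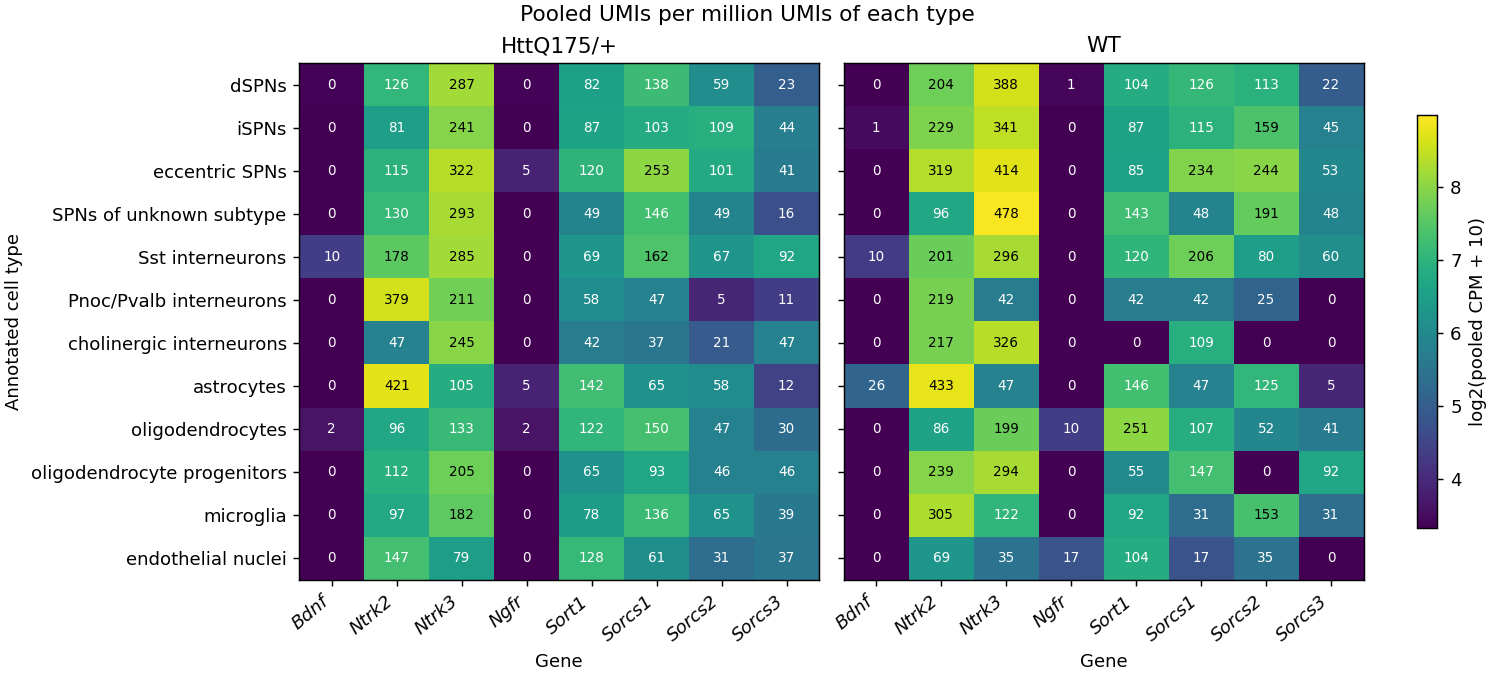
Pooled level of the 8 genes in each of the 12 annotated types, HttQ175/+ mice on the left and WT mice on the right, as CPM of all UMIs of the type (numbers rounded to whole CPM) on a log2 colour scale. Ntrk2 is highest in astrocytes of both genotypes, with Pnoc/Pvalb interneurons near them in HttQ175/+ mice, Ntrk3 is high in SPNs and Sst interneurons, and Bdnf and Ngfr are at or near 0 in nearly every type; columns are not to be compared between genes, since tags depend on the gene.

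The genotypes were compared with limma over the genes of a type that passed a filter on low values, with Benjamini-Hochberg adjustment. Changes are log2 ratios, HttQ175/+ over WT, with their SE, after a pseudocount of what 2 UMIs are worth in the median mouse was added to the CPM. As first set, a type was tested where 3 or more mice of each genotype had 10 or more of its nuclei. Pnoc/Pvalb interneurons and eccentric SPNs fell short of this and were fitted only after the levels had been seen. Ntrk2 fell in both main SPN types. In direct pathway SPNs (dSPNs), Ntrk2 stood at 143, 123, 87.5 and 110.2 CPM in HttQ175/+ replicates 1 to 4, against 212, 177 and 201 CPM in WT replicates 1 to 3. All 4 HttQ175/+ mice lay below all WT mice, as they did for 5.26% of the genes tested in dSPNs. The log2 change was -0.89 ± 0.19 (limma with Benjamini-Hochberg adjustment, adjusted p = 0.0148), and the 95% interval ran from -1.30 to -0.48. In indirect pathway SPNs (iSPNs), Ntrk2 stood at 88.7, 89.9, 52.0 and 63.3 CPM in HttQ175/+ replicates 1 to 4, against 189, 157 and 293 CPM in WT replicates 1 to 3. The groups again did not overlap, with WT replicate 3 the highest; 5.4% of the genes tested in iSPNs had all HttQ175/+ mice below all WT mice. The log2 change was -1.51 ± 0.26 (limma, adjusted p = 0.00415; 95% interval -2.06 to -0.97). The dSPN call rests on the WT mice used: the change was -0.83 (adjusted p = 0.0775) without WT replicate 1 and -0.87 (adjusted p = 0.0543) without WT replicate 3. In eccentric SPNs Ntrk2 overlapped between genotypes and did not pass the filter. Without the filter its log2 change there was -0.84 ± 0.44 and did not pass (limma, adjusted p = 0.768). SPNs of unknown subtype went the other way, at 121 to 236 CPM in HttQ175/+ mice and 0 to 118 CPM in WT mice, from 16 and 2 UMIs.

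The same nuclei had other differences by genotype. Of the genes tested, 3.94% passed in dSPNs (124 higher and 223 lower of 8796) and 2.23% in iSPNs (31 higher and 101 lower of 5908). The number passing in dSPNs was 208 without HttQ175/+ replicate 1 and 205 without WT replicate 1, and that in iSPNs was 79 without HttQ175/+ replicate 1 and 55 and 71 without WT replicates 1 and 3. The balance of higher and lower genes depended on the scaling by trimmed means (TMM) of the libraries: without it 388 genes passed in dSPNs, of which 41.8% were lower in HttQ175/+ mice, against 64.3% with it, and 118 passed in iSPNs, 63.6% of them lower, against 76.5% with it. Of the 8 genes, 6 passed the filter in each of the 2 types. In dSPNs 2 of the 6 fell (Ntrk2 and Sorcs2), where 2.54% of all genes did, and in iSPNs 1 of the 6 fell (Ntrk2), where 1.71% did; none rose in either. The median change of the 6 was -0.48 in dSPNs and -0.49 in iSPNs, beside 0.02 and 0.01 over all genes tested. The 8 genes were chosen with earlier results of these data known, so these shares and medians are a description and no test of the set. The summed SPN markers were also lower, at 3857 to 4293 CPM in HttQ175/+ dSPNs against 8223 to 8936 CPM in WT dSPNs, and at 4295 to 5158 CPM in HttQ175/+ iSPNs against 9323 to 9540 CPM in WT iSPNs. Summed astrocyte markers (4 of 4 detected), of interest because astrocytes are rich in Ntrk2, overlapped: 45.7 to 95.5 CPM in HttQ175/+ dSPNs against 60.5 to 113 CPM in WT dSPNs, and 37.8 to 114 CPM in HttQ175/+ iSPNs against 29.1 to 127 CPM in WT iSPNs. Summed eccentric SPN markers (4 of 4 detected) were higher in all HttQ175/+ mice, at 78.7 to 117 CPM in HttQ175/+ dSPNs against 34.1 to 60.8 CPM in WT dSPNs, and at 45 to 68.3 CPM in HttQ175/+ iSPNs against 12.1 to 22.5 CPM in WT iSPNs. Among them Col11a1 had 152 UMIs in HttQ175/+ dSPNs and 11 in WT dSPNs, and 55 UMIs in HttQ175/+ iSPNs and 3 in WT iSPNs; in dSPNs Otof had 102 and 45 UMIs, Cacng5 18 and 8 and Casz1 12 and 11 in HttQ175/+ and WT mice, of 2812859 UMIs in HttQ175/+ mice and 1417716 in WT mice. Col11a1 was also read in Sst interneurons, with 154 UMIs in HttQ175/+ mice and 73 in WT mice. Cortical excitatory markers (4 of 4 detected) stood at 18.3 to 39.5 CPM in HttQ175/+ dSPNs against 3.12 to 10.1 CPM in WT dSPNs. The part of these differences in the changes of Ntrk2 was not tested. TMM scaling shifted the median change of all genes in dSPNs by -0.12, and Ntrk2 passed in dSPNs and iSPNs without it as well.

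**Figure D2:**
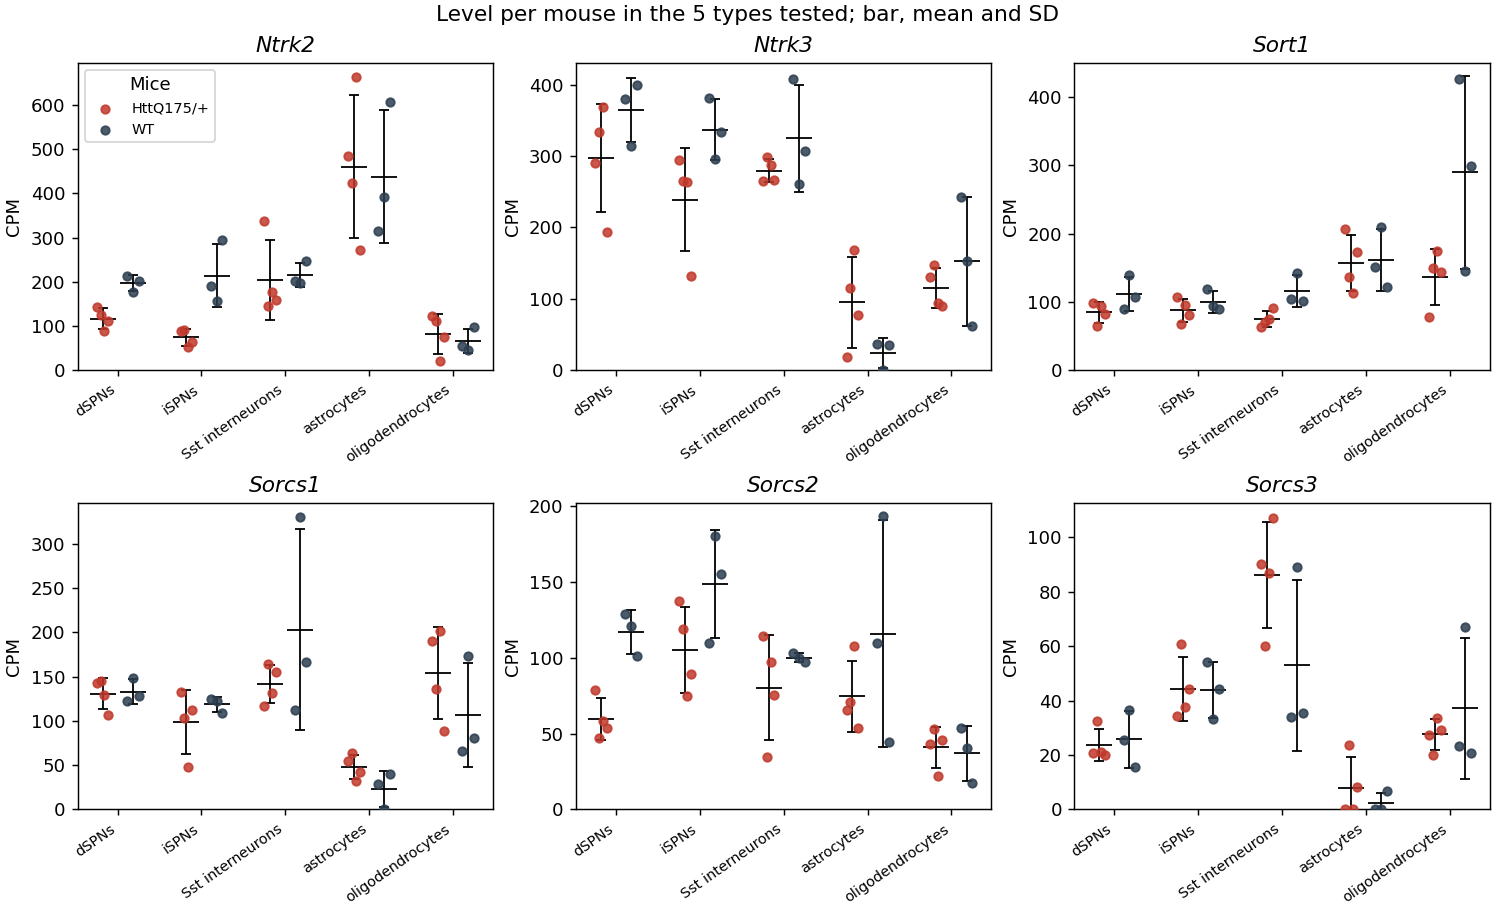
CPM of 6 genes in each mouse, HttQ175/+ in red left of WT in dark blue, in the 5 types tested; the black bar marks the mean and its whiskers the SD over 4 HttQ175/+ and 3 WT mice. The HttQ175/+ points of Ntrk2 lie below all WT points in dSPNs and iSPNs, those of Sorcs2 do so in dSPNs, and Ntrk2 overlaps between genotypes in Sst interneurons, astrocytes and oligodendrocytes.

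Outside SPNs the level of Ntrk2 did not pass in any type tested. In astrocytes it stood at 484, 424, 664 and 272 CPM in HttQ175/+ mice, against 315, 391 and 607 CPM in WT mice. The groups overlapped and each spread about as widely. The log2 change was 0.07 ± 0.33, with a 95% interval from -0.61 to 0.75 (limma, adjusted p = 0.957), so a change of the size seen in iSPNs lies outside the interval. Without nuclei under 1500 UMIs the change was -0.45 ± 0.30 and did not pass either. The log2 change was -0.13 ± 0.31 in Sst interneurons (interval -0.78 to 0.51) and 0.09 ± 0.47 in oligodendrocytes (interval -0.88 to 1.06), with adjusted p of 0.940 and 0.974 in limma. Summed astrocyte markers stood at 91.4 to 441 CPM in HttQ175/+ Sst interneurons against 32.7 to 53.8 CPM in WT Sst interneurons, and overlapped between genotypes in oligodendrocytes. Their part in the Ntrk2 levels of Sst interneurons was not tested. No gene of all those tested passed in astrocytes (0% of 1873, with 255 at an unadjusted p under 0.05) or Sst interneurons (0% of 2296, with 169), and 0.712% of 3650 passed in oligodendrocytes, a number that was 132 without HttQ175/+ replicate 3 and 1 without WT replicate 3. Fewer nuclei and UMIs stand behind these types, with 26 to 71 astrocyte nuclei per mouse against 119 to 509 dSPN nuclei.

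Differences of the genotype effect between types were tested within each mouse. The Ntrk2 change in iSPNs minus that in dSPNs was -0.65 ± 0.26 (interval -1.20 to -0.10; limma, adjusted p = 0.805), which did not pass. The change in astrocytes minus that in iSPNs was 1.43 ± 0.37 (interval 0.64 to 2.21; adjusted p = 0.149 in limma), and minus that in dSPNs 0.86 ± 0.39 (interval 0.03 to 1.68; adjusted p = 0.323). In these 3 comparisons 0% of 5903, 1563 and 1659 genes passed, with 365, 239 and 243 at an unadjusted p under 0.05. Astrocytes and SPNs were thus not shown to differ in this change at this number of mice. Within WT mice Ntrk2 in iSPNs over dSPNs was 0.05 ± 0.19, and within HttQ175/+ mice -0.60 ± 0.17 (limma, adjusted p = 0.958 and 0.425).

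Ntrk2 makes more than 1 protein. In the GENCODE vM21 annotation its transcripts Ntrk2-201 and Ntrk2-207 code for 821 amino acids and include the kinase domain of TrkB, while Ntrk2-202 and Ntrk2-204 code for 476 amino acids and end before it, as the truncated receptor that astrocytes are known to make. The 3' ends of Ntrk2-201 and Ntrk2-202 lie 197 kb apart on chromosome 13, at 59133970 and 58937027. The deposited values are sums per gene, so the forms cannot be told apart, and the lower Ntrk2 level in dSPNs and iSPNs cannot be assigned to either.

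Ntrk3 (chr7:78175959-78738012, minus strand), the neurotrophin-3 receptor gene, had 50.3% of its 2694 UMIs in dSPNs, which held 41.3% of all UMIs. Among types with at least 5 nuclei in every mouse it was highest in HttQ175/+ mice in eccentric SPNs (333 ± 72.5 CPM), dSPNs (297 ± 75.9 CPM), Sst interneurons (279.7 ± 16.7 CPM), Pnoc/Pvalb interneurons (256 ± 43.1 CPM) and iSPNs (238 ± 72.4 CPM). In WT mice the order ran through eccentric SPNs (394 ± 177 CPM), dSPNs (365 ± 45.1 CPM), iSPNs (337 ± 43.3 CPM) and Sst interneurons (325 ± 75.1 CPM), none of which differed from its neighbour beyond the spread, to oligodendrocyte progenitors (237 ± 69.1 CPM) and oligodendrocytes (152 ± 90.4 CPM). In iSPNs Ntrk3 stood at 294, 265, 263 and 132 CPM in HttQ175/+ mice, against 382, 296 and 334 CPM in WT mice. All HttQ175/+ mice lay below all WT mice in iSPNs, as they did for 5.4% of the genes tested there. However, HttQ175/+ replicate 1 and WT replicate 2 nearly touched and HttQ175/+ replicate 4 lay far below the rest. The log2 change of -0.64 ± 0.25 did not pass (limma, adjusted p = 0.222; interval -1.16 to -0.11). In dSPNs Ntrk3 stood at 291, 334, 369 and 194 CPM in HttQ175/+ mice, against 380.2, 314 and 400.4 CPM in WT mice, which overlapped. The log2 change there was -0.46 ± 0.20 (limma, adjusted p = 0.252; interval -0.89 to -0.03). It was -0.18 ± 0.26 in Sst interneurons and -0.28 ± 0.36 in oligodendrocytes, neither of which passed (adjusted p = 0.901 and 0.801 in limma). In astrocytes Ntrk3 was low, at 94.7 ± 63.7 CPM in HttQ175/+ mice and 23.7 ± 20.6 CPM in WT mice, and did not pass the filter; without the filter its log2 change of 1.20 ± 0.51 did not pass (limma, adjusted p = 0.537).

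Ngfr (chr11:95568818-95587735, minus strand), the p75 receptor gene, was read with 11 UMIs in all nuclei together. Oligodendrocytes held 2 in HttQ175/+ mice and 3 in WT mice, and iSPNs held 0 in both genotypes, which allows up to 2.51 CPM in HttQ175/+ mice and 3.48 CPM in WT mice (3 UMIs per genotype, for counting error only). Bdnf (chr2:109674700-109727007, plus strand) was read with 16 UMIs. Sst interneurons held 5 UMIs in HttQ175/+ mice and 2 UMIs in WT mice, or 10.5 CPM (exact Poisson 95% interval 3.41 to 24.5) and 10.03 CPM (1.21 to 36.2). These CPM and the others of this paragraph are of UMIs pooled over the mice of a genotype. As means over mice, Bdnf stood at 7.45 CPM in HttQ175/+ and 5.13 CPM in WT Sst interneurons, and at 33.5 CPM in WT astrocytes. Astrocytes held 0 Bdnf UMIs in HttQ175/+ mice, which allows up to 6.98 CPM, and 5 UMIs in WT mice (2, 2 and 1), or 26.1 CPM (interval 8.46 to 60.8). Neither gene passed the filter in any type. In fits of the genotype effect within a type without the filter neither passed the test (lowest limma adjusted p = 0.349, for Bdnf in astrocytes). Differences of the effect between types did not pass either (lowest limma adjusted p = 0.291, for Bdnf in astrocytes minus dSPNs). The counts are too few for a comparison of genotypes. In dSPNs 1 of 2812859 UMIs was of Bdnf in HttQ175/+ mice, and 0 of 1417716 UMIs in WT mice, which allows up to 2.12 CPM.

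Among the sorting receptors SorCS2 stood out in dSPNs. Sorcs2 (chr5:36017180-36398139, minus strand) stood at 78.8, 46.8, 58.3 and 53.8 CPM in HttQ175/+ dSPNs, against 129, 121 and 101 CPM in WT dSPNs. All HttQ175/+ mice lay below all WT mice, as they did for 5.26% of the genes tested in dSPNs. Sorcs2 fell by 1.08 ± 0.21 on the log2 scale (limma, adjusted p = 0.00819; interval -1.52 to -0.63), and it passed without each mouse in turn (adjusted p from 0.00709 to 0.0479). In iSPNs Sorcs2 stood at 137, 119, 74.8 and 89.0 CPM in HttQ175/+ mice, against 109.9, 180.2 and 155 CPM in WT mice. The groups overlapped through WT replicate 1, and the log2 change of -0.57 ± 0.25 did not pass (limma, adjusted p = 0.284; interval -1.10 to -0.04). The difference of the 2 changes, iSPNs minus dSPNs, was 0.45 ± 0.29 (interval -0.18 to 1.08; limma, adjusted p = 0.857), so the fall was not shown to be particular to dSPNs. Eccentric SPNs, an SPN type apart from dSPNs and iSPNs, had the highest Sorcs2 among types with at least 5 nuclei in every WT mouse, at 276 ± 65.8 CPM. HttQ175/+ eccentric SPNs stood at 112, 127, 175 and 37.5 CPM, against 283, 338 and 207 CPM in WT mice, again without overlap; Sorcs2 did not pass the filter there; of the genes that did, 7.41% had all HttQ175/+ mice below all WT mice. Without the filter its log2 change was -0.99 ± 0.44 and did not pass (limma, adjusted p = 0.768). The fit of eccentric SPNs, of 8 to 46 nuclei per mouse and below the number first set for a test, was added after the levels had been seen. Of the 8 genes it could test Ntrk3, with a log2 change of -0.15 ± 0.34, and Sorcs1, with 0.18 ± 0.36, and neither passed (limma, adjusted p = 0.862 and 0.835), while 1.98% of 756 genes did. That count of 15 genes was unstable, at 0 to 6 without 1 mouse and 2 to 5 under 4 other settings.

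Sort1 (chr3:108284082-108361511, plus strand), the gene of sortilin, averaged 157 ± 41.3 CPM in astrocytes of HttQ175/+ mice and 161 ± 45.1 CPM in those of WT mice. In oligodendrocytes, the highest type of WT mice, it stood at 77.2, 149, 174 and 143 CPM in HttQ175/+ mice, against 427, 144 and 299 CPM in WT mice. WT replicates 1 and 3 lay above all HttQ175/+ mice, while WT replicate 2 lay among them. The log2 change of -1.01 ± 0.35 did not pass (limma, adjusted p = 0.181; interval -1.73 to -0.29). In dSPNs Sort1 averaged 84.6 ± 15.5 CPM in HttQ175/+ mice and 111 ± 25.1 CPM in WT mice, and in iSPNs it lay at 67.8 to 107 CPM in HttQ175/+ mice and 88.6 to 119 CPM in WT mice. Its log2 changes of -0.50 ± 0.21 and -0.28 ± 0.23 did not pass (limma, adjusted p = 0.214 and 0.639). Sort1 levels of Sst interneurons did not overlap, at 62.5 to 90.8 CPM in HttQ175/+ mice and 101 to 143 CPM in WT mice; 3.92% of the genes tested there had all HttQ175/+ mice below all WT mice. Sort1 did not pass the filter there, and without the filter its log2 change of -0.48 ± 0.35 did not pass the test (limma, adjusted p = 0.840). In astrocytes Sort1 changed by -0.02 ± 0.34 (limma, adjusted p = 0.989).

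Sorcs1 (chr19:50143299-50678646, minus strand) and Sorcs3 (chr19:48206025-48805505, plus strand) passed no test. Sorcs1 stood at 107 to 145 CPM in HttQ175/+ dSPNs and 123 to 149 CPM in WT dSPNs, with a log2 change of -0.15 ± 0.17 (interval -0.52 to 0.22; limma, adjusted p = 0.706). A fall of the size of that of Sorcs2 in the same nuclei lies outside this interval. In iSPNs the change was -0.41 ± 0.28, in Sst interneurons -0.35 ± 0.33, in oligodendrocytes 0.46 ± 0.35 (limma, adjusted p = 0.546, 0.855 and 0.616). Sorcs3 was the least abundant of the sorting genes by UMIs, with 336 in all, and changed by -0.18 ± 0.30 in dSPNs and -0.08 ± 0.29 in iSPNs (limma, adjusted p = 0.811 and 0.938). Within mice its level in iSPNs over dSPNs was 0.71 ± 0.19 in HttQ175/+ mice and 0.63 ± 0.22 in WT mice, and did not pass in either genotype (limma, adjusted p = 0.389 and 0.343). Over all genes 0.186% passed that comparison in HttQ175/+ mice and 0.356% in WT mice.

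**Figure D3:**
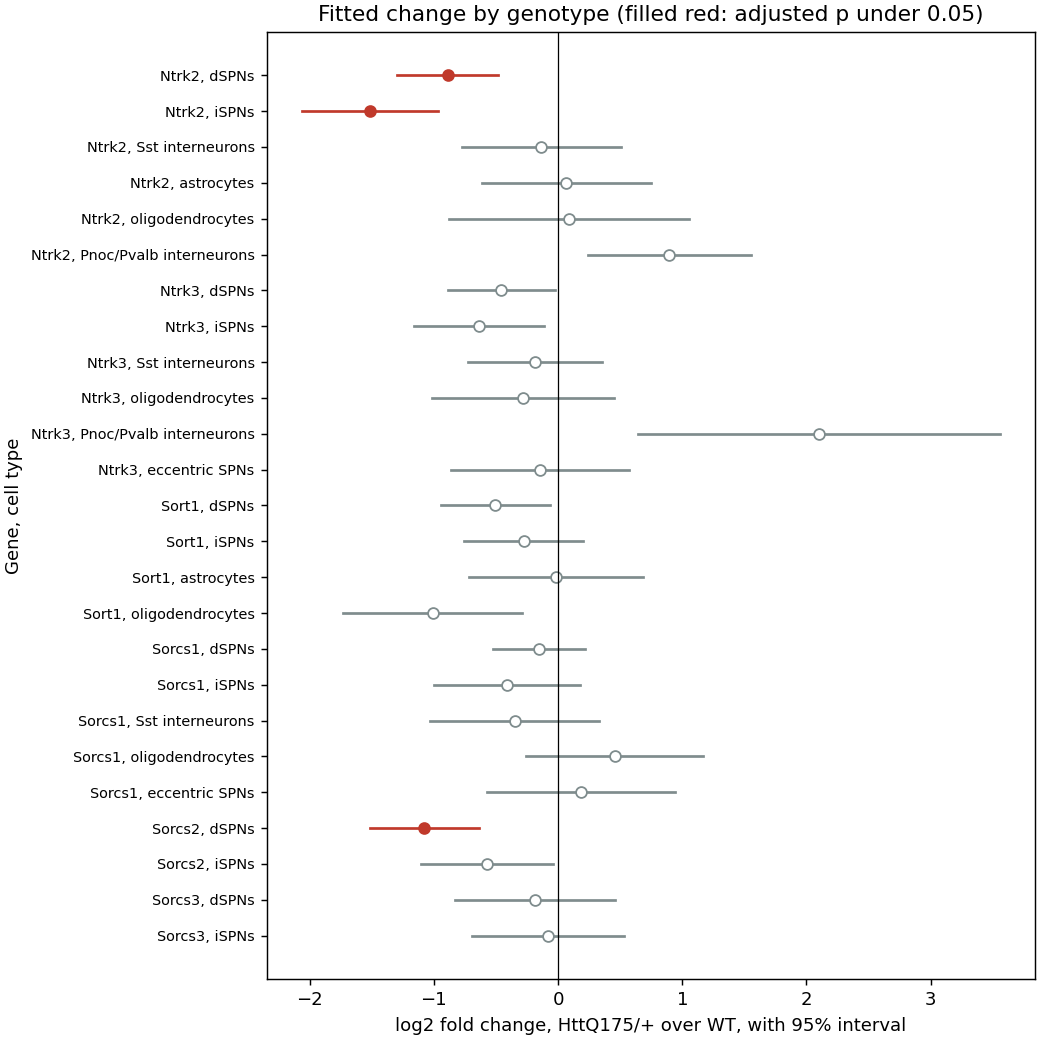
Fitted log2 fold change of HttQ175/+ over WT with its 95% interval for each gene and type in which the gene could be tested; filled red points passed at an adjusted p under 0.05. The 3 red points are Ntrk2 in dSPNs (-0.89), Ntrk2 in iSPNs (-1.51) and Sorcs2 in dSPNs (-1.08); Ntrk2 and Ntrk3 in Pnoc/Pvalb interneurons lie on the other side of 0 and did not pass.

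In Pnoc/Pvalb interneurons both Trk receptor genes had higher estimates in HttQ175/+ mice, opposite to dSPNs and iSPNs. These nuclei were few, 5 to 27 per HttQ175/+ mouse and 9 to 18 per WT mouse, below the number first set for a test, and were fitted after the levels had been seen. Ntrk2 stood at 297, 365, 553 and 385 CPM in HttQ175/+ mice, from 27, 17, 7 and 21 UMIs, against 162, 209.8 and 209.7 CPM in WT mice, from 7, 13 and 6 UMIs. No HttQ175/+ mouse overlapped a WT mouse. The log2 change of 0.90 ± 0.30 did not pass (limma, adjusted p = 0.899; interval 0.24 to 1.55). Ntrk3 stood at 192, 283, 283 and 265 CPM in HttQ175/+ mice, from 12, 15, 3 and 10 UMIs, against 62.9, 39.8 and 0 CPM in WT mice, from 3, 2 and 0 UMIs. Its log2 change was 2.10 ± 0.66 (limma, adjusted p = 0.899; interval 0.65 to 3.56), and Ntrk3 passed the filter only through the HttQ175/+ mice, so that its being tested already required a difference. Of 916 genes tested in this type 0% passed, with 38 at an unadjusted p under 0.05, and 2.73% had all HttQ175/+ mice above all WT mice.

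The difference of the Ntrk2 change in Pnoc/Pvalb interneurons minus that in iSPNs was 2.12 ± 0.34 (interval 1.34 to 2.89) and missed the threshold (limma, adjusted p = 0.0575). It passed without nuclei under 1500 UMIs (2.27, adjusted p = 0.0279), with a pseudocount of 5 UMIs (1.66, adjusted p = 0.0389) and with array weights (1.88, adjusted p = 0.0323). In the other 8 of 11 settings this difference did not pass, with adjusted p up to 0.526 in limma. Minus dSPNs it was 1.61 ± 0.33 (adjusted p = 0.172 in limma). Over all genes 0% of 856 passed against iSPNs and 0.228% of 876 against dSPNs. Summed Pvalb/Pnoc interneuron markers (4 of 4 detected) overlapped between genotypes in these nuclei, at 984 to 2340 CPM in HttQ175/+ mice and 999 to 1695 CPM in WT mice, as did SPN markers (5 of 5 detected), at 487 to 848 CPM in HttQ175/+ mice and 257 to 892 CPM in WT mice. Sst interneuron markers (3 of 3 detected) stood at 0 to 328 CPM in HttQ175/+ mice and at 0 in all WT mice; their part was not tested.

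**Figure D4:**
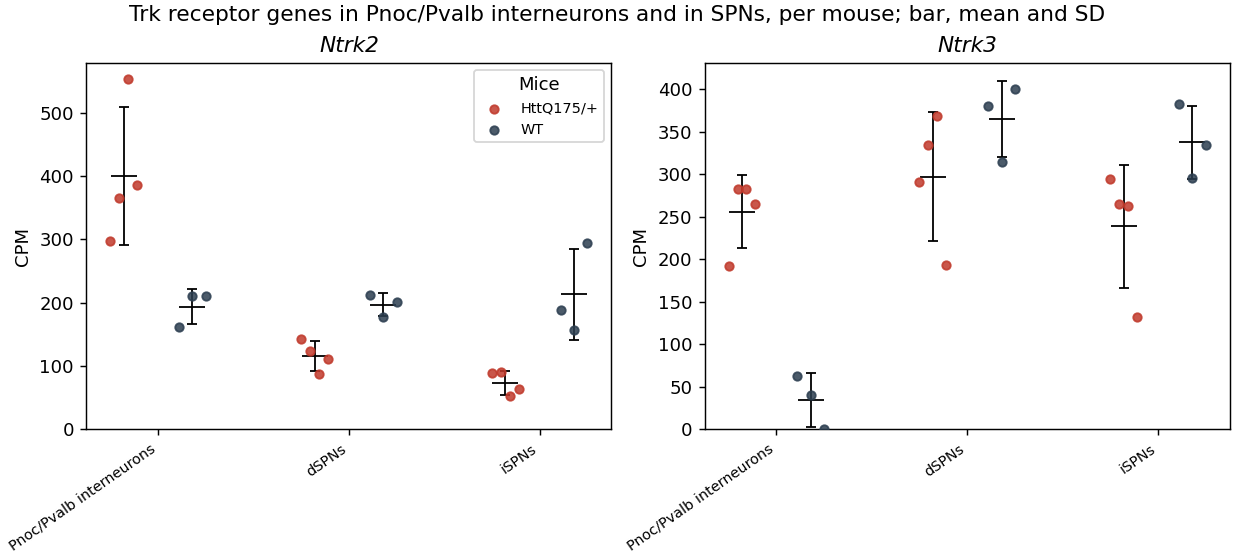
Ntrk2 (left) and Ntrk3 (right) in CPM per mouse in Pnoc/Pvalb interneurons, dSPNs and iSPNs, HttQ175/+ in red left of WT in dark blue, with mean and SD. HttQ175/+ points lie above WT points in the interneurons and, for Ntrk2, below them in both SPN types; the interneuron points rest on 3 to 27 UMIs in HttQ175/+ mice and 0 to 13 UMIs in WT mice.

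Genes that act with these receptors were read from 11 lists of the pathway, holding 129 genes beside the 8. The lists, too, were chosen with earlier results of these data known, so their counts and medians are a description only. In dSPNs 97 of the 129 could be tested; 3 rose and 6 fell, beside the 3.94% of all genes that passed, with a median change of -0.03 beside 0.02 over all genes. In iSPNs 84 could be tested; 0 rose and 5 fell, beside 2.23% of all genes, with a median of -0.07 beside 0.01. None of 33 genes passed in astrocytes, of 57 in oligodendrocytes or of 42 in Sst interneurons. The genes that fell in both SPN types were Camk2b, a subunit of the calmodulin kinase CaMKII, Itpr1, the IP3 receptor of the endoplasmic reticulum, Prkcb, a protein kinase C, and Gsk3b, a kinase that Akt inhibits. Camk2b had log2 changes of -0.98 ± 0.14 in dSPNs and -0.90 ± 0.16 in iSPNs (limma, adjusted p = 0.00131 and 0.00437). Itpr1 changed by -0.84 ± 0.17 in dSPNs and by -0.89 ± 0.16 in iSPNs (limma, adjusted p = 0.00965 and 0.00669). The changes of Prkcb were -0.80 ± 0.14 and -0.94 ± 0.18 (adjusted p = 0.00404 and 0.0104), and those of Gsk3b -1.06 ± 0.16 and -0.93 ± 0.23 (adjusted p = 0.00207 and 0.0448; limma).

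The list of the phospholipase C gamma and calcium branch, 1 of the 11, held most of these calls: of its 12 genes tested in dSPNs 1 rose and 4 fell (median -0.31), and of 11 in iSPNs 0 rose and 3 fell (median -0.29). Over all genes tested 3.94% passed in dSPNs, 2.54% as lower, and 2.23% in iSPNs, 1.71% as lower. The gene counted as rising is Camk2d, another CaMKII subunit, at 48.4 ± 16.5 CPM in HttQ175/+ dSPNs and 6.84 ± 5.99 CPM in WT dSPNs (2.40 ± 0.45; limma, adjusted p = 0.00747). It passed the filter through the HttQ175/+ mice alone, so that its being tested already required a difference, and its call supports nothing. Camk4, a nuclear calmodulin kinase, fell in dSPNs (-0.84 ± 0.16; limma, adjusted p = 0.00870). The Ras and ERK branch had no call among 15 genes in dSPNs (median -0.08) or among 13 in iSPNs (median 0.09), nor had the Trk adaptors among 11 and 8. Of genes that BDNF induces, 1 of 8 tested in dSPNs passed, Spry2, a brake on receptor tyrosine kinases, which fell by 1.10 ± 0.24 (limma, adjusted p = 0.0151), and 0 of 7 in iSPNs. Among genes of BDNF transport and processing, the motor subunits Dync1h1 (1.25 ± 0.21) and Klc1 (0.82 ± 0.19) rose in dSPNs and the convertase Pcsk2 fell in iSPNs (-0.94 ± 0.21; limma, adjusted p = 0.00323, 0.0212 and 0.0248). Endosomal sorting genes and p75 partners had no call in either SPN type, among 13 and 9 genes tested in dSPNs and 12 and 8 in iSPNs.

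**Figure D5:**
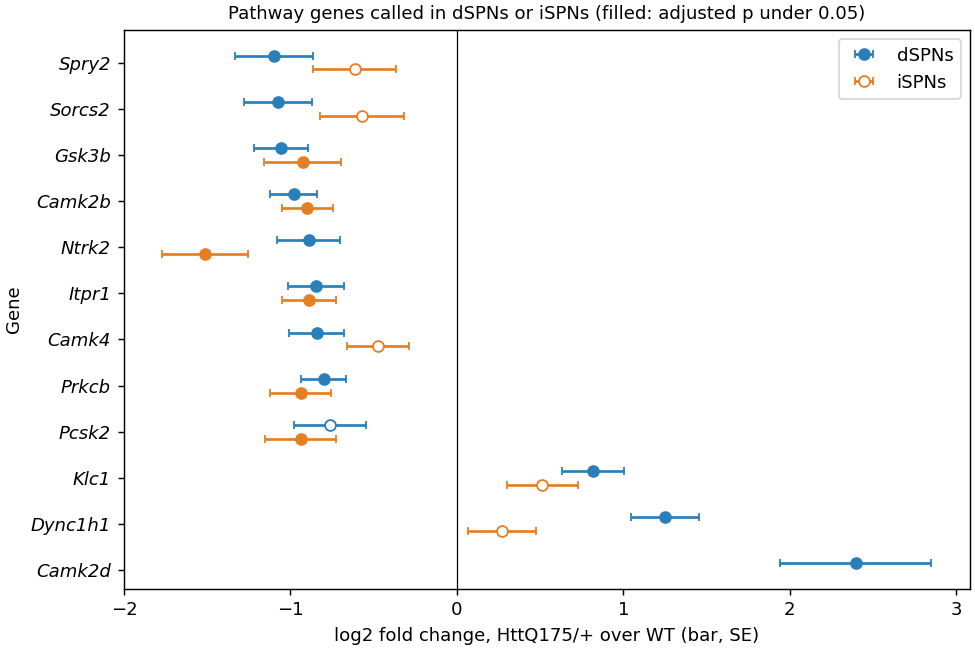
Log2 fold change of HttQ175/+ over WT with SE for every listed gene, the 8 included, that passed in dSPNs (blue) or iSPNs (orange); filled points passed and open points did not. Ntrk2, Camk2b, Itpr1, Prkcb and Gsk3b are filled on the left of 0 in both types, and Camk2d, Dync1h1 and Klc1 on the right in dSPNs.

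Likeness of pattern was described by Pearson's r of log2(CPM + 10) over 11 types of the WT mice, which share libraries and depth, among 12988 genes. Among the 8 genes the most alike were Ntrk3 and Sorcs3 (r = 0.90) and Ntrk3 and Sorcs1 (r = 0.86), while Ntrk2 and Ntrk3 were unlike (r = 0.02). The genes most like Ntrk2 were Trim9, Trak1, Rab34, Mrps26 and Zfp30, with r from 0.85 to 0.86. Those most like Ntrk3 were 1 gene with a provisional name, C2cd5, Abi2, Lrrc7 and Hfm1 (r from 0.90 to 0.94). Sort1 was most like Ubac2, Dcp1b, Cdk19, Dbndd2 and Katnbl1 (r from 0.93 to 0.95), and Sorcs2 most like 1 gene with a provisional name, Robo3, Cdk9, Grin2a and Ube4b (r from 0.85 to 0.90). Sorcs1 was most like Impa1, Il1rapl1, Ltn1, Gabra2 and Kcnf1 (r from 0.87 to 0.93), and Sorcs3 most like Hfm1, Bptf, Ntrk3, Clec16a and Rnf126 (r from 0.87 to 0.94). The pattern of Bdnf rests on too few UMIs in WT mice for such a ranking. Several of these types hold few nuclei, and r values this high are the top of a ranking. SPNs of unknown subtype entered with 1 WT mouse of 6 nuclei, where Sorcs3 was read with 1 UMI. Abi2, Lrrc7, Hfm1, Bptf, Rnf126 and Ube4b were highest there. Sorcs3 was highest in oligodendrocyte progenitors, from 5 UMIs of WT mice, so its r values rest on few UMIs as well. Microglia, rich in SPN markers, entered with 2 WT mice, and Trak1 and Cdk9 were highest there.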

How the data were processed

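Nuclei were isolated from frozen striatum and made into Chromium 3' libraries with version 3 chemistry, per the labels' protocols. Cell Ranger 3.0.2 and Seurat on mm10 were used, per the submitters' processing notes; the filters on nuclei, how types were called, and whether strand and introns were used are steps not given in the sources used here. Values deposited by the authors are natural log values: ln of UMIs per 10000 in the nucleus, with 1 added first. Whole UMIs were recovered for 100% of 5824756 values above 0, within a tolerance of 0.02. Types come from the other deposited table, the authors' annotation, whose genotypes matched the labels in 4524 nuclei.

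Because the unit is a natural log, limma 3.58.1 (R 4.3.3) was used in place of a count model. Linear values were averaged per mouse and type, expressed as CPM and TMM scaled. Pseudocounts ran from 3.67 CPM in dSPNs and 8.31 CPM in iSPNs to 15.1 CPM (oligodendrocytes), 22.5 CPM (Sst interneurons), 22.7 CPM (astrocytes), 38.8 CPM (Pnoc/Pvalb interneurons) and 41.9 CPM (eccentric SPNs); differences between types used the larger of both. Fold changes of low genes are understated by it. The filter kept genes of 15 or more UMIs over all mice, with 10 or more at the median total in 3 mice. Oligodendrocyte progenitors and endothelial nuclei had too few nuclei per WT mouse for a test, and none of the 8 genes passed the filter in them. Printed CPM are before TMM scaling. No nuclei were left out; Scrublet in scanpy 1.11.5 marked 53 (1.17%) as doublets. Simulated data, in which at most 200 genes per type had known changes, were used to test the fits. Nothing says whether differences between mice include technical ones, which the p-values also measure. The 8 genes and the pathway lists were chosen with earlier results of these data known. Named were all 8 genes, list genes that passed in dSPNs, iSPNs or astrocytes, Htt, and the 5 genes most alike in pattern over WT types. Coordinates are from GENCODE vM21 on mm10.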

Additional observations from a re-analysis of the deposited data

Results flagged for a closer look

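Of 25 groups of 4 HttQ175/+ mice examined for a mouse far from the others, 2 stood out, where chance gives about 1 in 20. Ntrk2 in Sst interneurons was 338 CPM in HttQ175/+ replicate 1, the mouse of 15 months, and 145 to 177 CPM in the other 3. Sorcs3 in dSPNs was 32.5 CPM in HttQ175/+ replicate 2 and at most 21.0 CPM in the other 3.

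In 3 cases the change by genotype in Pnoc/Pvalb interneurons ran opposite to that in dSPNs or iSPNs in the levels of every mouse. The difference for Ntrk2 was 1.61 against dSPNs and 2.12 against iSPNs, and that for Ntrk3 was 2.67 against iSPNs, all on the log2 scale; Ntrk3 passed the filter in these interneurons through the HttQ175/+ mice alone, so that its difference supports nothing. Each difference was tested in limma and missed the threshold with Benjamini-Hochberg adjustment (adjusted p = 0.172, 0.0575 and 0.131).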

How the results depend on the processing

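All 3 called changes kept their direction under 10 other settings and without each mouse in turn. Of their 51 re-runs 49 stayed past the threshold; the other 2 were Ntrk2 in dSPNs without WT replicate 1 (adjusted p = 0.0775) and without WT replicate 3 (adjusted p = 0.0543). Without 1 mouse, the change of Ntrk2 ran from -0.99 to -0.76 in dSPNs and from -1.71 to -1.25 in iSPNs, and that of Sorcs2 in dSPNs from -1.20 to -0.97. Over 872 re-runs of 51 values for single genes, 28 turned in sign, all of values under 0.35 in size that passed no test; the cause was not tested. No paired analysis was possible because mice of different genotypes share no pairing number in the labels.

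The counts of genes passing moved more. Without 1 mouse they ran from 205 to 322 in dSPNs, 55 to 140 in iSPNs, 0 to 6 in astrocytes, 1 to 132 in oligodendrocytes and 0 to 1 in Sst interneurons. For iSPNs against dSPNs they ran from 0 to 18 in WT mice and from 0 to 9 in HttQ175/+ mice, and for the astrocyte differences from 0 to 17 (iSPNs) and 0 to 30 (dSPNs). In oligodendrocytes 46 passed with a pseudocount of 5 UMIs, 2 with no filter, 5 without nuclei under 1500 UMIs and 127 with array weights. Counts elsewhere were 2 in astrocytes with array weights and 2 in Sst interneurons with no filter. In eccentric SPNs 15 fell to 2 (pseudocount of 1 UMI), 2 (at least 50 UMIs), 3 (no nuclei under 1500 UMIs) and 5 (array weights). Pnoc/Pvalb interneurons minus iSPNs gave 3, 1 and 5 in place of 0 (pseudocount of 5 UMIs, no nuclei under 1500 UMIs, array weights), and minus dSPNs 1, 0 and 1 in place of 2 (no TMM, no filter, at least 50 UMIs). The level comparison in WT mice gave 11, 37 and 9 (pseudocounts of 1 and 5 UMIs, no nuclei under 1500 UMIs), and that in HttQ175/+ mice 21, 0 and 24 (pseudocount of 5 UMIs, no filter, array weights). Astrocytes minus iSPNs gave 6 with a pseudocount of 5 UMIs and 3 without doublets, and minus dSPNs 1 without doublets.

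Signs turned for Ntrk2 in astrocytes with at least 50 UMIs (-0.021), summed UMIs (-0.0090) and no nuclei under 1500 UMIs (-0.45), in oligodendrocytes with summed UMIs (-0.0062) and in Sst interneurons without nuclei under 1500 UMIs (0.20). They turned for Sort1 in astrocytes with array weights (0.079) and in astrocytes minus iSPNs with summed UMIs (-0.024), for Sorcs3 in iSPNs without TMM (0.0021) and in iSPNs minus dSPNs with array weights (-0.060), and for Sorcs1 in eccentric SPNs without nuclei under 1500 UMIs (-0.0012). Without 1 mouse, signs turned within these ranges: for Ntrk2 -0.094 to 0.34 in astrocytes, -0.12 to 0.52 in oligodendrocytes and -0.19 to 0.17 for its WT level in iSPNs over dSPNs; for Ntrk3 -0.78 to 0.10 in oligodendrocytes and -0.40 to 0.13 in eccentric SPNs; for Sort1 -0.15 to 0.14 in astrocytes and -0.40 to 0.041 for its WT level; for Sorcs1 -0.68 to 0.021 in Sst interneurons and -0.44 to 0.0075 in iSPNs minus dSPNs; and for Sorcs3 -0.46 to 0.060 in dSPNs, -0.24 to 0.047 in iSPNs and -0.29 to 0.35 in iSPNs minus dSPNs.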
